A study of Homo sapiens with 6 samples.

Results

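The genes described here encode proteins of the lysosomal limiting membrane, proteins that work with it, and the proton pump that acidifies the organelle. They were chosen by name, 39 of the 58735 genes of the table: 8 subunits of the cytosolic V1 sector and 7 of the membrane-embedded V0 sector of the vacuolar ATPase (V-ATPase), 2 accessory proteins of that pump, 5 structural glycoproteins or tetraspanins, 2 proteins of cholesterol egress, 6 ion channels or chloride exchanger subunits, 7 exporters, sensors and other membrane proteins, and 2 mannose 6-phosphate receptors. All 39 were found, each in a single row. RNA came from AZ-521 cells, a single human line of genotype WT. The labels give it as gastric cancer cells from stomach, whereas cell banks trace it to a carcinoma of the duodenum. Cells had been kept for 48 h with 10 µM platycodon D (PD), a saponin from the root of Platycodon grandiflorus, or with the solvent DMSO, with 3 samples in each group. The stated purpose was to explore how PD acts against gastric cancer cells.

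As background, the V1 sector hydrolyses ATP and turns a rotor that drives protons through the V0 sector into the lumen, and the resulting acidity is needed by the lysosomal hydrolases and by many of the transporters in the same membrane. LAMP glycoproteins cover much of the inner face of that membrane, NPC2 and NPC1 hand cholesterol out of the lumen, and mannose 6-phosphate receptors deliver newly made hydrolases from the Golgi. Many lysosomal genes carry an E-box in their promoters, the CLEAR element, which is bound by the transcription factors TFEB, TFE3 and MITF.

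Reads over genes numbered 14915538 to 16341687 per sample. Separate cultures are not named for the replicates, and the p-values then describe the spread between these samples alone, which may be technical. The 8 gastric mucosal markers checked (MUC5AC, MUC6, TFF1, TFF2, GKN1, GKN2, PGC and CLDN18) lay under 1 FPKM (nominally fragments per kilobase of exon and 1e6 mapped fragments) in every sample, with TFF1, TFF2, GKN1 and GKN2 at 0. Of 6 epithelial markers 5 lay under 1 FPKM in every sample, among them EPCAM, and KRT18 and KRT19 were at 0 in all 6 samples. Fibroblast markers were mixed, with COL3A1 at 39.5 to 47.3 FPKM and LUM at 8.27 to 16.5 FPKM over the 6 samples and the other 4 (COL1A1, COL1A2, DCN and PDGFRA) under 1 FPKM; neither COL3A1 nor LUM passed the test between groups. Of 6 intestinal markers CDX2 had 0.979 to 1.59 FPKM and the rest lay under 1 FPKM. The sum of the epithelial markers was 1.46 to 1.70 FPKM with DMSO and 2.67 to 3.60 FPKM with PD, mostly CLDN4. Of 6 macrophage markers, which stand for a cell type rich in lysosomes, every member lay under 1 FPKM in every sample and AIF1 at 0; their summed level was 0.113 to 0.202 FPKM with DMSO and 0.355 to 0.997 FPKM with PD, and the part of these markers in the results was not tested. The samples differed in how levels followed GC content. Over all tested genes, Spearman correlations of the deviation from the group mean with GC were, in replicate order, -0.64, 0.46 and 0.54 for DMSO. For PD they were 0.61, 0.02 and -0.52, to both sides of 0. Across the 38 members that were tested, that deviation fell with GC content in DMSO replicate 1 and PD replicate 3 (Pearson r = -0.63 and -0.69) and rose with it in the other 4 (0.32 to 0.75). These correlations run across genes that share libraries, and deviations within a group cancel out by construction. PD replicate 3 was the highest PD sample for 20 of the 38 members and the lowest for 12. Counts are also given without the 2 libraries of negative slope.

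**Figure D1:**
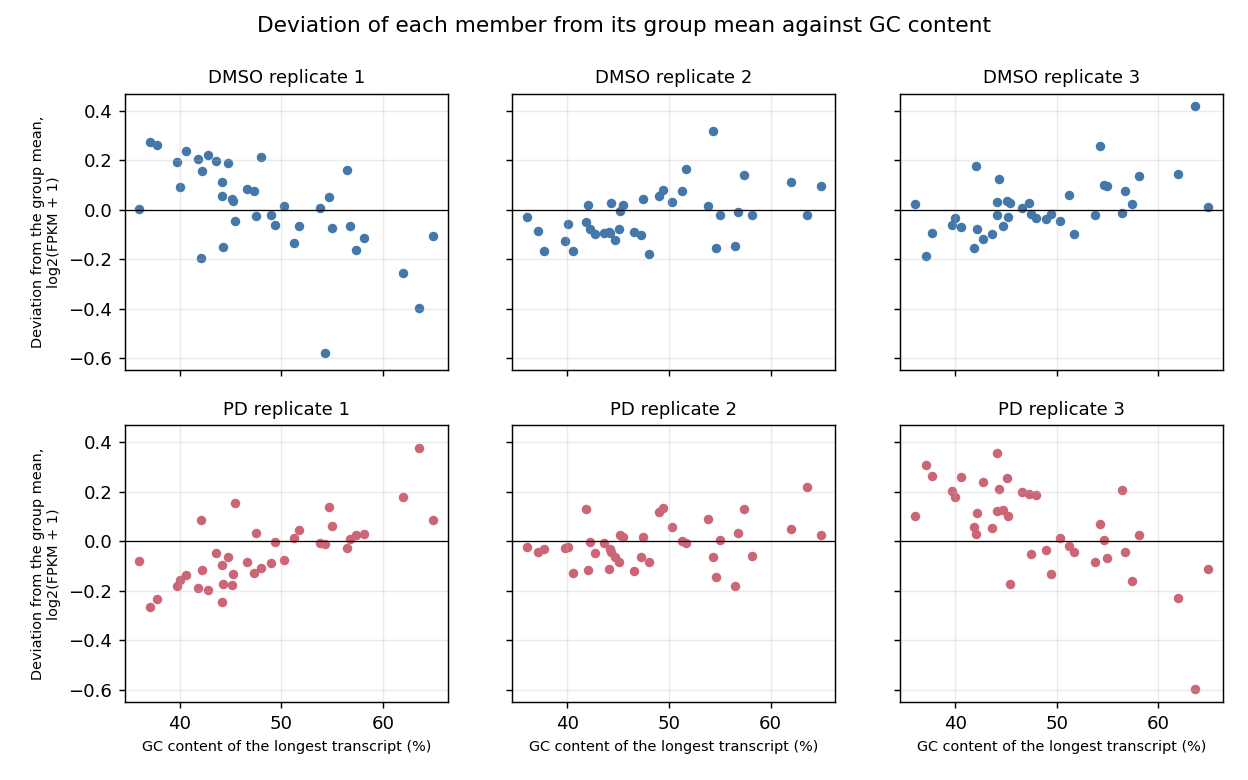
Each point is 1 of the 38 tested members, with the GC content of its longest transcript in percent on the x axis and its deviation from the mean of its own group on the log2(FPKM + 1) scale on the y axis, in a panel per sample. Points slope down in DMSO replicate 1 and PD replicate 3 (r = -0.63 and -0.69) and up in the other 4 panels.

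The comparison of PD with DMSO asked how the members stood after 48 h of exposure. Most of them were higher: 26 of the 38 tested members rose, 1 fell and 11 did not pass a threshold of 0.05 on the adjusted p (limma, Benjamini-Hochberg over all genes tested). Over all 13579 genes tested 14.3% rose and 12.7% fell, against 68.4% of the tested members that rose. A change of at least 2-fold besides was reached by 8 members, all upward: NPC1, MCOLN1, ATP6V0D1, M6PR, ATP6V1C1, NPC2, ATP6V1D and ATP6V1E1. That rule called 2.84% of all tested genes higher and 0.979% lower. The median log2 fold change was 0.76 over the members and 0.001 over all tested genes. Every tested member had at least 1 FPKM in each of the 6 samples, so none had entered the test through 1 group alone. In bulk RNA, a change in the RNA of each cell and a change in the share of cells that express a gene cannot be told apart.

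The totals by which the deposited FPKM values divide were 1.03, 1.10 and 1.08 times the reads over genes in DMSO replicates 1 to 3. In PD replicates 1 to 3 they were 1.002, 0.997 and 0.947 times those reads. Relative to reads over genes, the deposited scale thus sets PD higher against DMSO, and how it was chosen is not known here. Equal totals in all samples (the same number of reads over genes) shifted the median of all genes by -0.10 on the log2 scale. So scaled, 26 members rose, 2 fell and 6 rose at least 2-fold. Over all genes the balance of that fit turned over, from 1947 that rose and 1731 that fell to 1407 and 2812, and the 2-fold calls went from 386 higher and 133 lower to 302 and 213. Without DMSO replicate 1 and PD replicate 3, 27 members rose, 1 fell and 6 rose at least 2-fold. All 3 PD values lay above all 3 DMSO values for 28 of the 39 members and below them for 2, against 22.5% and 21.9% of all tested genes. Fold changes are on the log2(FPKM + 1) scale, which understates the change of low genes. Fitted changes of the members that rose ran from 1.43-fold for ATP6V0B to 3.12-fold for NPC1.

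**Figure D2:**
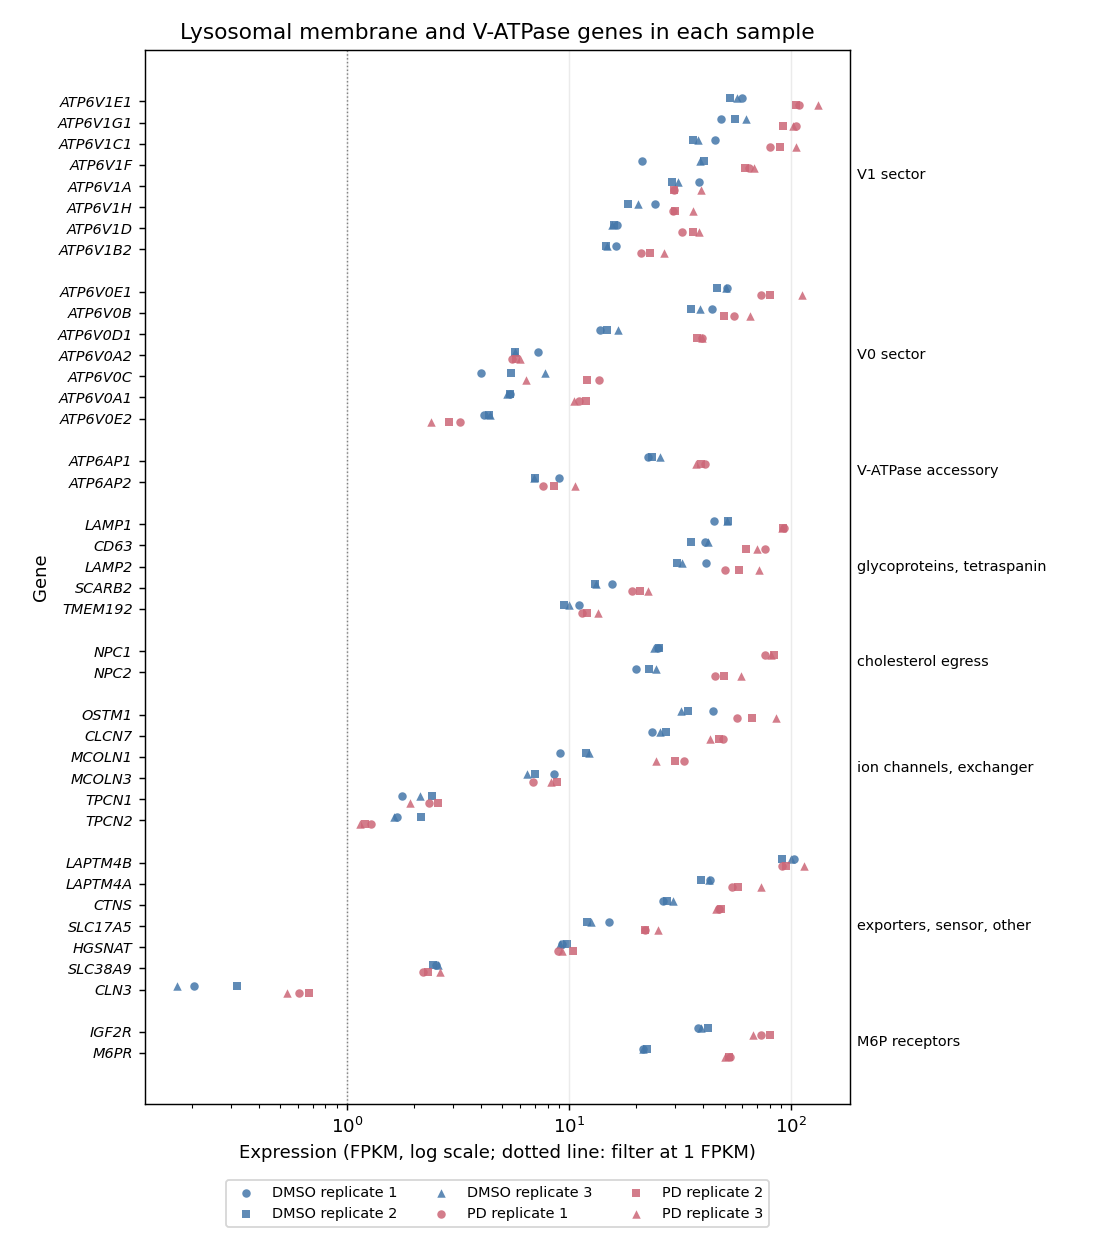
Level of all 39 genes in FPKM on a log axis, with 3 DMSO samples in blue and 3 PD samples in red, grouped by role. For 28 genes the 3 PD points lie to the right of the 3 DMSO points, for ATP6V0E2 and TPCN2 to the left, and CLN3 lies under the filter of 1 FPKM in all samples.

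Promoter sequences are shown because most tested members rose and because the E-box is a known feature of this gene class. RefSeq windows of 300 bases (250 before the start of transcription to 50 after it, build GRCh38.p14) were at hand for 31 of the 39 members. The 8 without a window were ATP6V0E1, ATP6V1A, ATP6V1B2, ATP6V1C1, ATP6V1H, LAMP2, LAPTM4B and HGSNAT. The E-box CACGTG, which reads the same on both strands, occurred in at least 1 window of 11 of the 31 with a window (35.5%). Over all 27305 genes with a window, tested or not, the share was 8.77%. The hexamer sits inside longer forms of the element. The form TCACGTG, searched on both strands, was in 10 of 31 (32.3%) against 4.49%, and the palindrome TCACGTGA in 6 of 31 (19.4%) against 1.18%. The shares over all genes were not matched to the members for expression or base composition. Genes with several windows had more chances of a match, and a match is a description of letters, not a bound site. The stretches below run from 200 bases before the start to 10 bases after it, 5′ to 3′ on the strand of the gene. They are given for tested members with TCACGTG on either strand in a window that passed a check of strand. In that check, bases shortly after the start had to occur in a GENCODE transcript of the gene. Whether a GENCODE transcript begins at that start was not tested. Capitals mark each CACGTG. The stretches are ordered by the fitted response to PD, from the largest rise to the one gene that fell.
MCOLN1, chr19:7522424-7522633, plus strand: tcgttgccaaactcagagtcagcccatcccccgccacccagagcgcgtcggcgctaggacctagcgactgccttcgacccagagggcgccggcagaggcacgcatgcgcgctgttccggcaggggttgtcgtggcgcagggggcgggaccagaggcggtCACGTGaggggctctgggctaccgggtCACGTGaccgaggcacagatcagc
ATP6V0D1, chr16:67481148-67481357, minus strand: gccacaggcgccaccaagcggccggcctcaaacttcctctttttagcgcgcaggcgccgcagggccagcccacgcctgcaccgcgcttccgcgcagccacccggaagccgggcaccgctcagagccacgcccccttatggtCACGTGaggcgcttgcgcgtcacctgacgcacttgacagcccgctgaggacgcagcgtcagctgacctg
LAMP1, chr13:113297039-113297248, plus strand: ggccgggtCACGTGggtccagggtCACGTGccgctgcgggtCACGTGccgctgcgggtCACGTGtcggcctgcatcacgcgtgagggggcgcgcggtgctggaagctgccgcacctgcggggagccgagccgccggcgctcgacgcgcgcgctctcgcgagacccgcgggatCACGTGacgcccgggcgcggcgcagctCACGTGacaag
IGF2R, chr6:159968882-159969091, plus strand: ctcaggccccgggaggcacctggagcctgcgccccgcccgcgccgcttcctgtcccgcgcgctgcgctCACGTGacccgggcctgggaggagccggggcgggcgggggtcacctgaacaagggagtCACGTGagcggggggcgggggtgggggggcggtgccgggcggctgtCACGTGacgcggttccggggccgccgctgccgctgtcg
CLCN7, chr16:1475019-1475228, minus strand: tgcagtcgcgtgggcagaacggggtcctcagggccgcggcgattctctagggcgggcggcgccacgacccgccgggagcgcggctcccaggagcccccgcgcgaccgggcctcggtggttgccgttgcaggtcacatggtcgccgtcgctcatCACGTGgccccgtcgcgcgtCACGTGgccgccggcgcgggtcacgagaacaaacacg
ATP6V1G1, chr9:114587569-114587778, plus strand: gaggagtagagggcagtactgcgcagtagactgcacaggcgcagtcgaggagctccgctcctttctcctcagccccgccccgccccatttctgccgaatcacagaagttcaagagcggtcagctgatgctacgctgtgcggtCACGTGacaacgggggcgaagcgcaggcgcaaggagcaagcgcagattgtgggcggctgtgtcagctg
ATP6V0B, chr1:43974760-43974969, plus strand: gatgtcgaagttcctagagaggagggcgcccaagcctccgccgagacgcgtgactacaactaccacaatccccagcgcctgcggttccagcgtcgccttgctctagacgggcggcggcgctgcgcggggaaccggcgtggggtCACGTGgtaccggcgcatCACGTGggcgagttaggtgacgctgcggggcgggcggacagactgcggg
ATP6V0E2, chr7:149872764-149872973, plus strand: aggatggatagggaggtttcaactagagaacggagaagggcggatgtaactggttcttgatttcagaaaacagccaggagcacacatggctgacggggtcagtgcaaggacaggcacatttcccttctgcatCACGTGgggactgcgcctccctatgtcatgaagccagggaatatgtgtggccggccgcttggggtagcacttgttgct

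The hexamers sat close to the start in most of these genes. MCOLN1 carries them 41 and 14 bases upstream, counted from the first base of the hexamer, ATP6V0D1 at 59, CLCN7 at 47 and 27, ATP6V1G1 at 58, ATP6V0B at 57 and 39, and IGF2R at 132, 74 and 28. LAMP1 has 6 of them, 4 in a spaced array between 192 and 142 bases upstream. M6PR, CD63 and CLN3 held the hexamer as well, in windows not printed here. Among tested members with a window, 9 of the 10 with CACGTG rose and 1 fell, and 12 of the 20 without it rose and 8 did not pass. The median log2 fold change was 0.86 with it and 0.71 without it. NPC1, NPC2 and ATP6V1D, which were among the largest rises, had no CACGTG in their windows, and ATP6V0E2, which has it 68 bases before the start used here, fell. These shares were not tested.

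V1 sector. Of the 8 subunits 7 rose and 1 did not pass. The summed level of the sector was 270, 263 and 277 FPKM in DMSO replicates 1 to 3 and 470, 467 and 546 FPKM in PD replicates 1 to 3. FPKM here is per length of all annotated exons of a gene, whether or not they are used in these cells. Levels of different genes, and their sums and ranks, can thus be set side by side only roughly. Within a sample the highest subunit of the sector was 3.67 to 4.21 times the lowest with DMSO, and 4.53 to 5.11 times with PD.

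ATP6V1C1 (ENSG00000155097, chromosome 8, 103021063 to 103073051 on GRCh38), the C subunit that clamps V1 to V0 and leaves when the pump is taken apart, had 45.5, 36.2 and 37.9 FPKM with DMSO and 80.04, 89.1 and 105 FPKM with PD. Its groups did not overlap, and the log2 fold change was 1.17 ± 0.13 (SE, adjusted p = 0.0013 in limma). ATP6V1D (ENSG00000100554, chromosome 14, 67294371 to 67360265), part of the central rotor, stood at 16.3, 15.9 and 15.6 FPKM and then at 32.3, 36.2 and 38.2 FPKM (log2 fold change 1.11 ± 0.09, adjusted p = 0.000393 in limma). The DMSO samples of this gene were nearly level, with an SD of 0.378 FPKM around a mean of 15.9. On the opposite strand EIF2S1 covers 6.33% of the exonic bases of ATP6V1D, at 23.6 to 35.25 FPKM. ATP6V1E1 (ENSG00000131100, chromosome 22, 17592136 to 17628818), a peripheral stalk subunit and the highest of the sector by group mean (ATP6V1G1 was higher in DMSO replicates 2 and 3), went from 59.8, 52.8 and 56.6 to 108, 105 and 131 FPKM. Its fitted change of 2.01-fold (interval 1.67 to 2.41) lay just inside the 2-fold criterion, and that of ATP6V1F, at 1.99-fold (1.37 to 2.87), just outside it.

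ATP6V1F, the other rotor subunit, had 21.2, 40.4 and 38.6 FPKM with DMSO and 64.5, 62.1 and 68.2 FPKM with PD. The low value was that of DMSO replicate 1, and the gene did not pass without PD replicate 1 or without PD replicate 2 (adjusted p = 0.0525 and 0.055 in limma). ATP6V1G1, the second stalk subunit, had 55.5 ± 7.21 FPKM with DMSO and rose to 99.4 ± 7.06 FPKM (SD, n = 3; adjusted p = 0.00297 in limma). ATP6V1B2, the nucleotide-binding B subunit of the catalytic head, rose from 15.2 ± 0.907 to 23.7 ± 2.92 FPKM (log2 fold change 0.60 ± 0.11, adjusted p = 0.00768 in limma). ATP6V1H, a regulatory subunit, rose by 0.57 ± 0.13 (adjusted p = 0.0186 in limma) and did not pass in 3 of the 6 fits that lacked 1 sample: adjusted p was 0.0648 without DMSO replicate 2, 0.0618 without DMSO replicate 3 and 0.05003 without PD replicate 2.

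The member of V1 that did not pass was ATP6V1A, the catalytic A subunit that hydrolyses ATP. Its levels were 38.5, 28.9 and 30.9 FPKM with DMSO and 29.5, 29.7 and 39.1 FPKM with PD, and the groups overlapped fully. The fitted ratio was 0.999 with a 95% interval of 0.783 to 1.27 (adjusted p = 0.996 in limma). A 1.51-fold change such as that of its partner ATP6V1B2 lies outside that interval. ATP6V1A stood 14th among the members by mean level with DMSO and 22nd with PD.

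V0 sector. Of the 7 subunits 4 rose, 1 fell and 2 did not pass, and the summed level went from 130, 117 and 129 to 202, 200 and 242 FPKM. ATP6V0D1 (ENSG00000159720, chromosome 16, 67438014 to 67481237), which couples the rotor to the membrane ring, had 13.8, 14.8 and 16.6 FPKM with DMSO and 39.8, 37.4 and 39.8 FPKM with PD. This was the largest change of any pump subunit (log2 fold change 1.32 ± 0.09, adjusted p = 0.000236 in limma), in groups far apart. ATP6V0E1, a small membrane subunit, rose from 51.4, 46.4 and 50.5 to 73.2, 80.3 and 112 FPKM, with PD replicate 3 well above the others. ATP6V0B, the c″ proteolipid of the ring, rose from 39.3 ± 4.32 to 56.6 ± 7.89 FPKM (log2 fold change 0.51 ± 0.13, adjusted p = 0.0255 in limma). It did not pass in 4 of the 6 fits that lacked 1 sample, with an adjusted p of 0.0875 and 0.0758 without DMSO replicates 2 and 3, and of 0.0651 and 0.0512 without PD replicates 1 and 3, or after GC correction (0.0577).

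The c subunit ATP6V0C, the main proteolipid of the rotating ring, stood at 3.999, 5.48 and 7.79 FPKM with DMSO and 13.6, 12.1 and 6.41 FPKM with PD. It rested on 92 to 312 reads per sample, the fewest of the tested members. The groups overlapped because PD replicate 3 lay under DMSO replicate 3, and the log2 fold change of 0.77 ± 0.29 did not pass (adjusted p = 0.0903 in limma). Without PD replicate 3 it was 1.07 (adjusted p = 0.0208 in limma), and without both libraries of negative slope 0.87 (0.0163). GC correction gave 0.75 (0.0359) and voom on recovered reads 0.86 (0.0446). In the other 13 of 17 alternative fits the gene did not pass. This transcript had the second highest GC content of the tested members, at 63.6%. Its low level beside the other ring subunit also has a limit in the annotation: 57.5% of its exonic bases are shared on the same strand with AC093525.2, a gene listed at 0 in all samples, and how reads in shared exons were counted is not stated in the labels or the table.

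The a subunit, which forms the proton path and steers the pump to its compartment, has several paralogs. ATP6V0A1 rose from 5.40, 5.43 and 5.26 to 11.1, 11.9 and 10.5 FPKM, with DMSO samples almost level and a log2 fold change of 0.93 ± 0.08 (adjusted p = 0.000584 in limma). ATP6V0A2 did not pass, with 7.23, 5.73 and 5.70 FPKM against 5.55, 5.74 and 6.02 FPKM and an interval of 0.791 to 1.12 for the ratio. ATP6V0E2, the paralog of ATP6V0E1, was the member that fell, from 4.13, 4.36 and 4.38 to 3.24, 2.86 and 2.38 FPKM (log2 fold change -0.47 ± 0.11, adjusted p = 0.0189 in limma). It did not pass without DMSO replicate 2, DMSO replicate 3 or PD replicate 2 (adjusted p = 0.0673, 0.0677 and 0.0605), and 12.8% of its exonic bases are shared with the antisense gene ATP6V0E2-AS1, whose reads cannot be told apart if counting ignored the strand.

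Of the accessory proteins, ATP6AP1 (Ac45), which helps V0 to assemble, rose from 24.0 ± 1.51 to 39.0 ± 1.77 FPKM (SD, n = 3), and its log2 fold change was 0.68 ± 0.09 (adjusted p = 0.00205 in limma). ATP6AP2, the (pro)renin receptor, had 9.00, 7.02 and 6.91 FPKM against 7.61, 8.54 and 10.7 FPKM and did not pass, with an interval of 0.906 to 1.45 for the ratio.

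**Figure D3:**
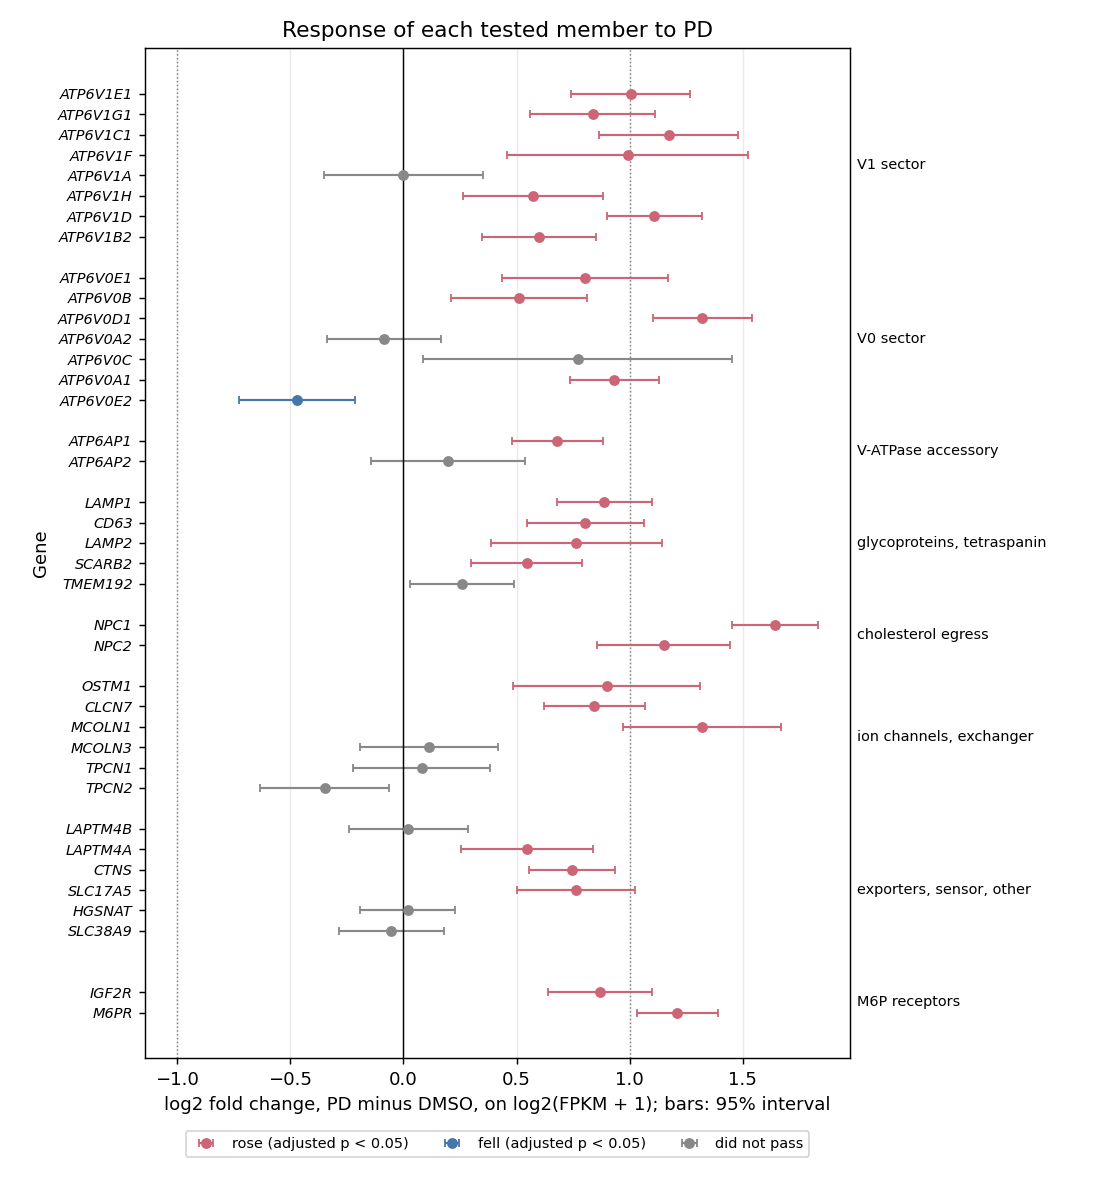
Log2 fold change of PD against DMSO for the 38 tested members on the log2(FPKM + 1) scale, with 95% intervals from limma. Red points rose, the blue point fell and grey points did not pass; dotted lines mark 2-fold changes. NPC1 lies furthest to the right at 1.64, and ATP6V0E2 furthest to the left at -0.47.

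Related genes of a family differed in their share of the family's transcripts. These shares come from levels within a sample, so a scaling of whole samples cancels out. The GC slopes of the libraries do not cancel where related genes differ in GC content, as MCOLN1 (62.0%) and MCOLN3 (41.8%) do. ATP6V0A1 made up 33.9, 34.3 and 33.7% of the summed FPKM of the a subunit genes with DMSO and 54.1, 55.4 and 53.7% with PD, while ATP6V0A2 went from 39.4 ± 5.24% to 28.2 ± 2.30% and TCIRG1 from 26.5 ± 5.09% to 17.2 ± 1.82% (SD, n = 3). ATP6V0A1 was thus second among the a subunit genes with DMSO by mean share and first with PD. That order also depends on the exon lengths used, 10955 bases for ATP6V0A1, 13729 for ATP6V0A2 and 4384 for TCIRG1. ATP6V0E2 held 7.999 ± 0.581% of the e subunit and then 3.26 ± 1.09%, and ATP6V1E2, a paralog known mainly from testis, 12.02 ± 1.32% of the E subunit and then 3.92 ± 0.349%. ATP6V1E2 itself fell, from 7.68 ± 0.546 to 4.64 ± 0.239 FPKM (adjusted p = 0.00342 in limma).

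The same held outside the pump. LAMP3, the inducible member of the LAMP family, made up 16.0, 16.2 and 18.9% of the 3 LAMP genes with DMSO and 5.52, 5.63 and 5.37% with PD, and fell from 17.3 ± 1.86 to 8.84 ± 0.43 FPKM (adjusted p = 0.0013 in limma; picked after seeing its value). LAPTM4B, the most abundant of all members with DMSO, held 70.2 ± 0.411% of the LAPTM4 pair and then 61.9 ± 0.971%. MCOLN1 went from 59.6 ± 7.46% to 77.9 ± 3.97% of the mucolipins. Its share was lowest within each group in the libraries of negative GC slope, at 51.1% in DMSO replicate 1 and 74.4% in PD replicate 3. The ratio was set against the sample labels for 10 pairs chosen after the values were seen. In 9 of them, ATP6V0A1 to ATP6V0A2, ATP6V0A1 to TCIRG1, ATP6V0E1 to ATP6V0E2, ATP6V1E1 to ATP6V1E2, LAMP1 to LAMP3, LAPTM4A to LAPTM4B, MCOLN1 to MCOLN3, TPCN1 to TPCN2 and M6PR to IGF2R, all PD ratios lay above all DMSO ratios (two-sided exact permutation test, p = 0.1, the smallest that 3 against 3 samples allow; adjusted over the 10 pairs 0.111). With that floor no pair could pass 0.05, so nothing is concluded from this test. The separation was not set against that of other gene pairs. Of single tested genes, 22.5% lay higher in all PD samples than in all DMSO samples and 21.9% lower. The change of the ratio was 3.64-fold for LAMP1 to LAMP3, 3.35-fold for ATP6V1E1 to ATP6V1E2 and 1.29-fold for M6PR to IGF2R. LAMP1 to LAMP2 was the pair whose groups overlapped, at 1.09-fold (exact p = 0.7).

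**Figure D4:**
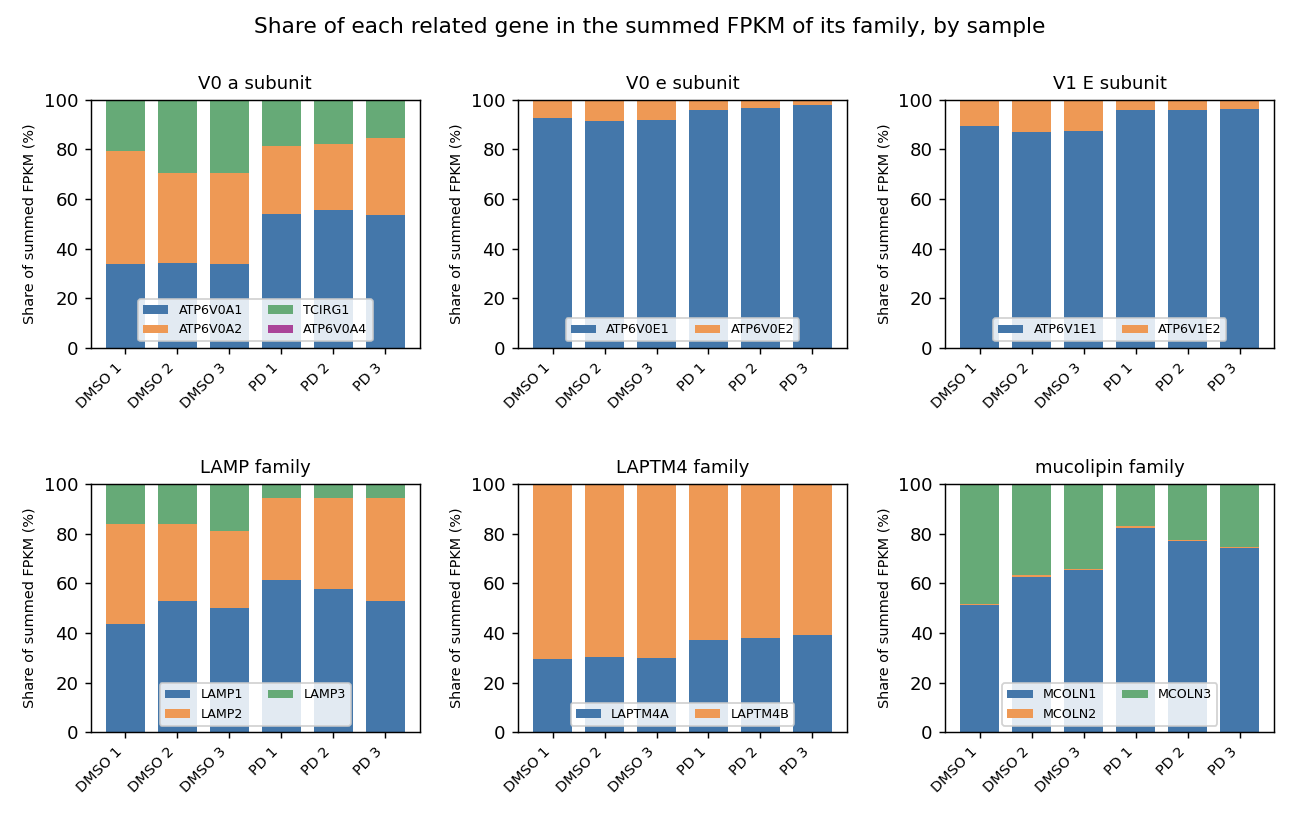
Share in percent of each gene in the summed FPKM of its family, as stacked bars for each of the 6 samples and 6 families. The share of ATP6V0A1 is 33.7 to 34.3% in the DMSO samples and 53.7 to 55.4% in the PD samples, and LAMP3 shrinks from 16.0 to 18.9% down to 5.37 to 5.63%.

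Structural glycoproteins. LAMP1 (ENSG00000185896, chromosome 13, 113297241 to 113323672), the most abundant of this group, had 44.8, 52.0 and 51.3 FPKM with DMSO and 92.8, 92.1 and 90.9 FPKM with PD. The PD samples differed by less than the DMSO samples, and the log2 fold change was 0.89 ± 0.09 (adjusted p = 0.000895 in limma). LAMP2, which also takes part in chaperone-mediated autophagy, rose from 41.5, 30.6 and 32.1 to 50.2, 58.0 and 71.2 FPKM (0.77 ± 0.16, adjusted p = 0.0137). The tetraspanin CD63, found on late endosomes and secreted vesicles, rose from 39.4 ± 3.69 to 69.6 ± 6.88 FPKM, and SCARB2, the receptor that carries glucocerebrosidase to lysosomes, from 13.96 ± 1.43 to 20.8 ± 1.72 FPKM (SD, n = 3; adjusted p = 0.00282 and 0.00952 in limma). TMEM192, a membrane protein often used as a tag for isolating lysosomes, stood at 11.0, 9.44 and 9.98 FPKM and at 11.5, 12.03 and 13.5 FPKM. Its groups did not overlap, but the log2 fold change of 0.26 ± 0.10 did not pass (adjusted p = 0.0923 in limma); after GC correction it did (0.0136).

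Cholesterol egress. NPC1 (ENSG00000141458, chromosome 18, 23506184 to 23586898) showed the largest change of all members, with 25.1, 25.5 and 24.1 FPKM with DMSO and 75.8, 83.2 and 80.6 FPKM with PD. The log2 fold change was 1.64 ± 0.08 (adjusted p = 5.72e-05 in limma), and NPC1 moved from the 17th to the 7th place among the members by mean level. On the opposite strand RMC1 covers 5.98% of the exonic bases of NPC1, at 15.1 to 22.95 FPKM. NPC2 (ENSG00000119655, chromosome 14, 74476192 to 74494177), the soluble partner that passes cholesterol to NPC1, rose from 20.1, 22.9 and 24.5 to 45.1, 49.5 and 59.3 FPKM (1.15 ± 0.13, adjusted p = 0.00121). Their groups did not overlap, and NPC2 went from the 19th to the 16th place.

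Ion channels and the chloride exchanger. MCOLN1 (ENSG00000090674, chromosome 19, 7522626 to 7534009), the lysosomal calcium and cation channel, had 9.05, 11.96 and 12.3 FPKM with DMSO and 33.0, 30.1 and 24.6 FPKM with PD, in groups far apart (log2 fold change 1.32 ± 0.15, adjusted p = 0.00132 in limma). Its paralog MCOLN3 did not pass, with 8.53, 6.99 and 6.44 FPKM against 6.85, 8.80 and 8.31 FPKM. CLCN7, the proton-coupled chloride exchanger of lysosomes, rose from 23.6, 27.3 and 25.7 to 49.4, 47.3 and 43.0 FPKM (0.84 ± 0.09, adjusted p = 0.00131). OSTM1, its obligate beta subunit, rose by a like amount, from 44.2, 34.2 and 31.9 to 57.0, 66.7 and 85.4 FPKM (0.90 ± 0.18, adjusted p = 0.0104), with a wider spread in both groups.

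The 2 endolysosomal two-pore channel genes were low. TPCN1 had 1.76, 2.41 and 2.14 FPKM against 2.33, 2.58 and 1.93 FPKM, with overlapping groups. TPCN2 had 1.68, 2.16 and 1.63 FPKM with DMSO and 1.28, 1.2 and 1.15 FPKM with PD; the groups did not overlap, and the log2 fold change of -0.35 ± 0.12 did not pass (adjusted p = 0.0703 in limma). It passed with equal totals, quantile scaling, no variance trend, GC correction and voom on recovered reads (adjusted p = 0.0444, 0.0453, 0.0446, 0.0332 and 0.0136).

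Exporters, sensor and other membrane proteins. CTNS, which exports cystine, rose from 26.4, 27.5 and 29.2 to 47.4, 48.3 and 45.7 FPKM (log2 fold change 0.75 ± 0.08, adjusted p = 0.00118 in limma), and SLC17A5 (sialin), which exports sialic acid, from 15.1, 12.01 and 12.5 to 22.01, 21.97 and 25.2 FPKM (0.76 ± 0.11, adjusted p = 0.00351). The groups of neither gene overlapped. LAPTM4A rose from 41.5 ± 1.99 to 61.6 ± 10.2 FPKM (SD, n = 3; adjusted p = 0.0181 in limma), and did not pass without DMSO replicate 2 or DMSO replicate 3 (0.0665 and 0.0518). Its paralog LAPTM4B had 103, 91.0 and 99.5 FPKM against 90.7, 94.9 and 114 FPKM and did not pass, with an interval of 0.847 to 1.22 for the ratio.

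HGSNAT, which acetylates heparan sulfate across the membrane, had 9.25, 9.81 and 9.13 FPKM against 8.92, 10.4 and 9.29 FPKM, and the ratio had an interval of 0.876 to 1.17. SLC38A9, the arginine sensor that signals to mTORC1, had 2.52, 2.44 and 2.57 FPKM against 2.20, 2.32 and 2.63 FPKM, with an interval of 0.821 to 1.13. Both intervals exclude a 1.43-fold rise, the smallest among the members that rose. CLN3, the membrane protein mutated in juvenile neuronal ceroid lipofuscinosis, lay under the filter and was not tested. It rested on 31, 54 and 30 reads with DMSO and 92, 102 and 79 reads with PD, or 0.205, 0.321 and 0.172 against 0.608, 0.674 and 0.535 FPKM. The PD samples were all higher, and 25.2% of its exonic bases are shared on the same strand with the gene AC138894.1, so its level is uncertain.

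Mannose 6-phosphate receptors. M6PR, the cation-dependent receptor (ENSG00000003056, chromosome 12, 8940363 to 8949955), rose from 21.4, 22.5 and 21.6 to 53.1, 52.5 and 50 FPKM, with little spread in either group (log2 fold change 1.21 ± 0.08, adjusted p = 0.000153 in limma). On the opposite strand PHC1 covers 29.3% of the exonic bases of M6PR, at 3.23 to 4.93 FPKM. IGF2R, the larger cation-independent receptor that also clears IGF2, rose from 38.0, 42.0 and 39.2 to 73.2, 80.5 and 66.9 FPKM (0.87 ± 0.10, adjusted p = 0.0013). M6PR held 35.5 ± 0.60% of the summed level of both receptors with DMSO and 41.4 ± 1.74% with PD.

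Other genes of the same machinery were taken from lists that do not include the members. Beside the counts below, 14.3% of all tested genes rose and 12.7% fell. Among 13 genes for assembly and regulation of the V-ATPase, 12 were tested, of which 1 rose (TMEM199, a V0 assembly factor, log2 fold change 0.54, adjusted p = 0.0142 in limma) and 1 fell (TMEM9, -0.40, adjusted p = 0.044), both chosen after their values were seen. TMEM199 did not pass without DMSO replicate 2 (adjusted p = 0.0531), nor TMEM9 in 4 such fits, those lacking DMSO replicate 2, DMSO replicate 3, PD replicate 1 or PD replicate 2 (0.0986 to 0.144). The most expressed of that list did not pass: the assembly chaperone VMA21 had 18.6 ± 3.81 and 18.4 ± 2.00 FPKM (SD, n = 3), DMXL2 had 11.98 ± 1.61 and 11.1 ± 0.971 FPKM, OXR1 had 10.1 ± 2.49 and 12.7 ± 2.19 FPKM and NCOA7 had 10.9 ± 1.36 and 8.58 ± 0.784 FPKM. NCOA7 passed in 4 alternative fits (adjusted p = 0.0177 to 0.0471) and OXR1 in 2 (0.0181 after GC correction and 0.0473 without DMSO replicate 1). The list's median log2 fold change was 0.0018. Of 9 other subunit isoforms only 3 were tested, and 1 of them, ATP6V1E2, fell, while TCIRG1 and ATP6AP1L stood at -0.18 and -0.23 without passing.

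Among 58 matched genes for other lysosomal membrane proteins and transporters 44 were tested; 14 rose (31.8%) and 3 fell, with a median of 0.10. MFSD1, a lysosomal dipeptide transporter, was the one called with at least a 2-fold change (log2 fold change 1.2 ± 0.12, adjusted p = 0.000884 in limma), and CLCN6 and GPR137B rose by 0.98 and 0.88 (all chosen after their values were seen). The most expressed genes of that list, CD164, GPR155, PLEKHM2 and CLCN3, stood at 0.51, 0.02, -0.26 and 0.03 without passing. CD164 passed in 6 alternative fits, among them GC correction (adjusted p = 0.00191) and the fit without DMSO replicate 1 (0.0238), and PLEKHM2 in 4 (0.0229 to 0.0301). Of the 27 genes for mannose 6-phosphate tagging and lysosomal sorting 26 were tested, 9 rose (34.6%) and 1 fell, with a median of 0.07. Clathrin heavy and light chain genes CLTC and CLTA rose by 0.46 and 0.38 (adjusted p = 0.0327 and 0.0499), AP3D1 and AP1S2 stood at -0.10 and -0.47 without passing, and the gene that fell was the sorting receptor SORT1 (-0.76, adjusted p = 0.00139; picked after seeing its value). AP1S2 passed in 4 alternative fits (adjusted p = 0.0111 to 0.0438). CLTC did not pass in 5 of the 6 fits without a single sample, all but the one without DMSO replicate 1 (adjusted p = 0.0517 to 0.11), and CLTA did not pass in any of them (0.0534 to 0.15).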

How the data were processed

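RNA of AZ-521 cells was sequenced by the submitters as paired reads from a stranded mRNA kit, per the labels' protocols, and 1 table of FPKM values for 58735 genes in 6 samples was deposited. For the aligner, the counter and the use of strand, nothing is given in the sources used here. Exons of 15 members overlap those of a gene on the opposite strand, and exons of 7 those of a gene on the same strand. Only mouse builds stand in the submitters' processing notes, whereas all identifiers, coordinates and exon lengths of the deposited table matched the human GENCODE 29 annotation on GRCh38. Table columns were matched to samples by the prefix of the group and the final number of the title. Each deposited FPKM value was a whole number of reads within 0.01, so reads were recovered, giving the depths stated.

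Genes with at least 1 FPKM in at least 3 samples (13579) were tested with limma 3.58.1 in R 4.3.3 on log2(FPKM + 1) with a mean-variance trend, two-sided, with Benjamini-Hochberg adjustment over all of them. Rose and fell mean an adjusted p under 0.05, and "at least 2-fold" adds that size, the criteria the labels name. The step was tested on simulated reads with known changes, with the same spread setting for all genes and no GC slopes. That run thus says nothing about the GC slopes of these libraries. All members were named. Of each other list, up to 4 genes were named: those called at 2-fold by size, or, with fewer than 2 such genes, those of highest mean FPKM. Further genes of those lists were added after their values were seen, as marked in the text. The members and lists were chosen with earlier results of these data known. Alternatives were the pseudocount, filters, scaling, variance trend, replicate block, GC correction, voom on recovered reads and left-out samples. Promoter windows came from RefSeq (GRCh38.p14). Protein sequences were not used here.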

Additional observations from a re-analysis of the deposited data

How the results depend on the processing

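Of the 26 members that rose, 20 rose in every alternative fit, and 22 members kept direction and call throughout. Members that rose numbered 26 with a pseudocount of 0.1, 22 with no filter and 27 after GC correction and with voom on recovered reads. Members that rose at least 2-fold numbered 8, with 10 for a pseudocount of 0.1 and for voom, 7 for quantile scaling, 6 for equal totals and 6 without both libraries of negative slope. Members that fell numbered 0 with no filter and with the 2-fold criterion. They numbered 2 with equal totals, quantile scaling, no variance trend, GC correction and voom. With a minimum mean of 5 FPKM the number was also 0, but that filter removed ATP6V0E2 (mean 3.56 FPKM over all samples). The fall of ATP6V0E2 was thus not retested there. Leaving out 1 sample at a time gave 23 to 26 that rose, 8 to 9 that rose at least 2-fold and 0 to 1 that fell. The replicate block gave 22 that rose and 0 that fell, and 1089 and 755 of all genes; with it LAMP2, SCARB2, ATP6V0B, ATP6V1H and ATP6V0E2 did not pass (adjusted p = 0.0537, 0.0538, 0.0539, 0.0563 and 0.0722), nor CLTC, CLTA, TMEM199 and TMEM9 (0.0968, 0.0723, 0.0516 and 0.101). Same-numbered samples did not deviate together (r = -0.39, 0.17 and -0.16), and 0 of 3 DMSO samples matched their own number best. The block was thus used otherwise only together with GC correction. Over all genes, a pseudocount of 0.1 called 626 higher and 336 lower and voom 667 and 374. With no filter 32355 genes were tested, of which 1075 fell. With a minimum mean of 5 FPKM only 7380 genes were tested, of which 1254 rose and 960 fell (227 and 77 at least 2-fold). With equal totals 1407 rose and 2812 fell (302 and 213 at least 2-fold), and after GC correction 2807 rose and 2631 fell. The 2-fold criterion left 386 and 133. Leaving out samples gave 1144 to 2402 that rose and 859 to 2156 that fell, the highest without both libraries of negative slope. With equal totals the summed DMSO level was 134 FPKM for V0 and 289 FPKM for V1. Log2 fold changes that turned were all of genes that did not pass. Without 1 sample they ran from -0.1310 to 0.1172 for ATP6V1A, -0.1366 to 0.0113 for ATP6V0A2, -0.0003 to 0.1603 for TPCN1, -0.0409 to 0.0610 for HGSNAT, -0.0747 to 0.0864 for LAPTM4B (-0.0364 without both libraries), -0.0802 to 0.1578 for VMA21, -0.1562 to 0.0010 for DMXL2, -0.0467 to 0.1346 for GPR155 and -0.0267 to 0.0911 for CLCN3. With equal totals they were -0.0038 for TPCN1, -0.0935 for HGSNAT, -0.1003 for LAPTM4B, -0.1138 for VMA21, -0.1015 for GPR155 and -0.0947 for CLCN3. Quantile scaling gave -0.1007 for LAPTM4B, -0.0565 for VMA21, -0.1293 for GPR155 and -0.0655 for CLCN3. GC correction, with or without the replicate block, gave 0.0402 for ATP6V1A, 0.0003 for SLC38A9 and -0.0065 for HGSNAT. The change of the log2 ratio of LAMP1 to LAMP2, PD minus DMSO, ran from -0.0851 to 0.2603 in fits chosen after seeing the data. The causes were not tested. Depth limits CLN3 (30 to 102 reads) and ATP6V0C (92 to 312 reads) most.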
